A study of Homo sapiens with 6 samples.

Results

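The measurements below concern 8 genes used to describe androgen response and luminal or neuroendocrine state in the prostate, FOXA1, FOXA2, SPDEF, FKBP5, KLK2, KLK3, TMPRSS2 and FOLH1, in 2 sublines of the human prostate carcinoma line PC-3. The genes were taken by name, and every probe set annotated with the symbol of a single one of them was kept, which gave 25 probe sets of 54613 on the array and 8 genes of 19775. The sublines are labelled PC-3/Mc and PC-3/S, and 3 one-colour Affymetrix arrays were run for each (n = 3 per line throughout). PC-3 is an established line that came from a bone metastasis of a prostate adenocarcinoma; neither a treatment nor a hormone condition is given for the cultures, and the labels do not say how the sublines were derived or whether either is a clone. The series asks how an epithelial-mesenchymal transition bears on the attributes of tumor-initiating cells.

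In the luminal cells of the prostate, androgen binds the androgen receptor, which is held ready by a chaperone complex, enters the nucleus and switches on genes for secreted and surface proteins. FOXA1 opens chromatin for the receptor, and KLK3 (prostate-specific antigen), KLK2, TMPRSS2 and FKBP5 are its textbook targets. FOLH1 encodes prostate-specific membrane antigen, a surface marker used in imaging. FOXA2 is a close relative of FOXA1 that marks early endoderm and neuroendocrine prostate tumors, and SPDEF is an ETS factor of luminal and goblet cells. PC-3 cells are known to grow without androgen and to lack most output of the receptor. The androgen receptor gene itself is not analysed here, so the 8 genes are described by name and not as a readout of that receptor.

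The promoters of KLK2 and KLK3 are shown first because both genes carry the classical hormone-response sequence of this gene group while 5 of their 7 probe sets read at background level in both lines. The KLK promoters are the 250 bases before each RefSeq start in GRCh38.p14, at chr19:50873189-50873438 (plus strand) for KLK2 and chr19:50854665-50854914 (plus strand) for KLK3. Capitals mark a match to GNACA and GTNC with any 4 bases between, a loose form of the inverted repeat bound by steroid receptors, searched on both strands.
KLK2: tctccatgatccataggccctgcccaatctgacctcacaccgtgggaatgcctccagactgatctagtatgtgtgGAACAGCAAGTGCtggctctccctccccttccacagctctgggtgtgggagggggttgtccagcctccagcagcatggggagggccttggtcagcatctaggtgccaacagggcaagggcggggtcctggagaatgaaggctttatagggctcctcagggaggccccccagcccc
KLK3: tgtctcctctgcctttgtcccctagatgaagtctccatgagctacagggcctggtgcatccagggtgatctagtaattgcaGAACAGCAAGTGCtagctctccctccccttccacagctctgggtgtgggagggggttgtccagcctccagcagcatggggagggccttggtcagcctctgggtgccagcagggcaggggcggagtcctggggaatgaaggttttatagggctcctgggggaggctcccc

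Both genes held the same 13 letters, GAACAGCAAGTGC, at bases 76 to 88 of the KLK2 window and 82 to 94 of the KLK3 window. A match of this kind was found in 1.81% of all 35116 promoter windows of this length. Aligned to each other, the KLK2 and KLK3 windows were identical at 196 of 219 bases (89.5%). The genes are neighbours in a tandem cluster of related proteases, and probes for either could also bind the other's transcript.

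FOXA1 and SPDEF are shown as the pair of factors that differed in opposite directions between the lines. Their windows lie at chr14:37595250-37595499 (minus strand) for FOXA1 and chr6:34556330-34556579 (minus strand) for SPDEF, in the same build. Capitals mark a match to a forkhead core, TGTTTNC or TATTTNC on either strand, the kind of site that FOXA proteins bind.
FOXA1: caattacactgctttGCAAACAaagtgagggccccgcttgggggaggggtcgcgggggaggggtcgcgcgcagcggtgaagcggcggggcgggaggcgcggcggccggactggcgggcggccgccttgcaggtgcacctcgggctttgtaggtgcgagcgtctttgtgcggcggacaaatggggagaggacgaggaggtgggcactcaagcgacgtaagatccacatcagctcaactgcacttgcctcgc
SPDEF: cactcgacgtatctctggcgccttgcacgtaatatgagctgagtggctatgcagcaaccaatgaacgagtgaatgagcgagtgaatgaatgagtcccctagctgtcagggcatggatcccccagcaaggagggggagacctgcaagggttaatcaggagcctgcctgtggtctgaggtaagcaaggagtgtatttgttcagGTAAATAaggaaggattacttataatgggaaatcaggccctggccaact

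A forkhead core was found in 24.9% of all windows, and FOXA1 and SPDEF held 1 each. The KLK2 and KLK3 windows and both windows of FKBP5 held none, and FKBP5, FOXA1 and SPDEF had no match to the steroid receptor sequence. RefSeq windows were found for 5 of the 8 genes.

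Of the 25 probe sets, 14 were called different between the lines, 5 higher and 9 lower in PC-3/Mc, and 11 were not called. The rate over the whole array was 35.9%, with 18.4% of probe sets higher and 17.5% lower. Throughout, values are log2 expression, a difference is positive where PC-3/Mc is higher and is given with its standard error, and a call is an adjusted p under 0.05 from limma with Benjamini-Hochberg adjustment over all 54613 probe sets. At least 2-fold and called were 11 of the 25, against 8.35% of the array. For 15 of the 25 no array of one line fell within the range of the other, against 45.3% of the array. The 8 genes were chosen with earlier results of these data known, and the 25 probe sets are repeated readings of them. These shares are therefore a description and no test of the group. With each gene represented by its brightest probe set, 5 of the 8 were called, against 45.9% of all genes. In RNA from whole cultures, fewer expressing cells and less RNA per cell cannot be told apart. The labels call the 3 samples of each line biological replicates without saying whether these were separate cultures or passages. A p-value sets the difference between the lines against the spread among samples within a line, moderated by limma over all probe sets. It does not cover variation between separately derived sublines.

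The array medians lay between 4.98 and 5.09, and correlations across probe sets were 0.995 to 0.997 within a line and 0.949 to 0.952 between lines. No present or absent calls were used. CTNNA1, which is known to be deleted in PC-3, has 5 probe sets whose highest reading was 5.18, and values up to 5.18 are read as background level. A fold whose dimmer line has a mean in that range is a lower bound, taken against 5.18. Of the 25 probe sets, 7 stayed at or under 5.18 in both lines, a smaller share than the 49.8% of the array. The array shares of calls given above thus rest on more probe sets at background level.

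**Figure D1:**
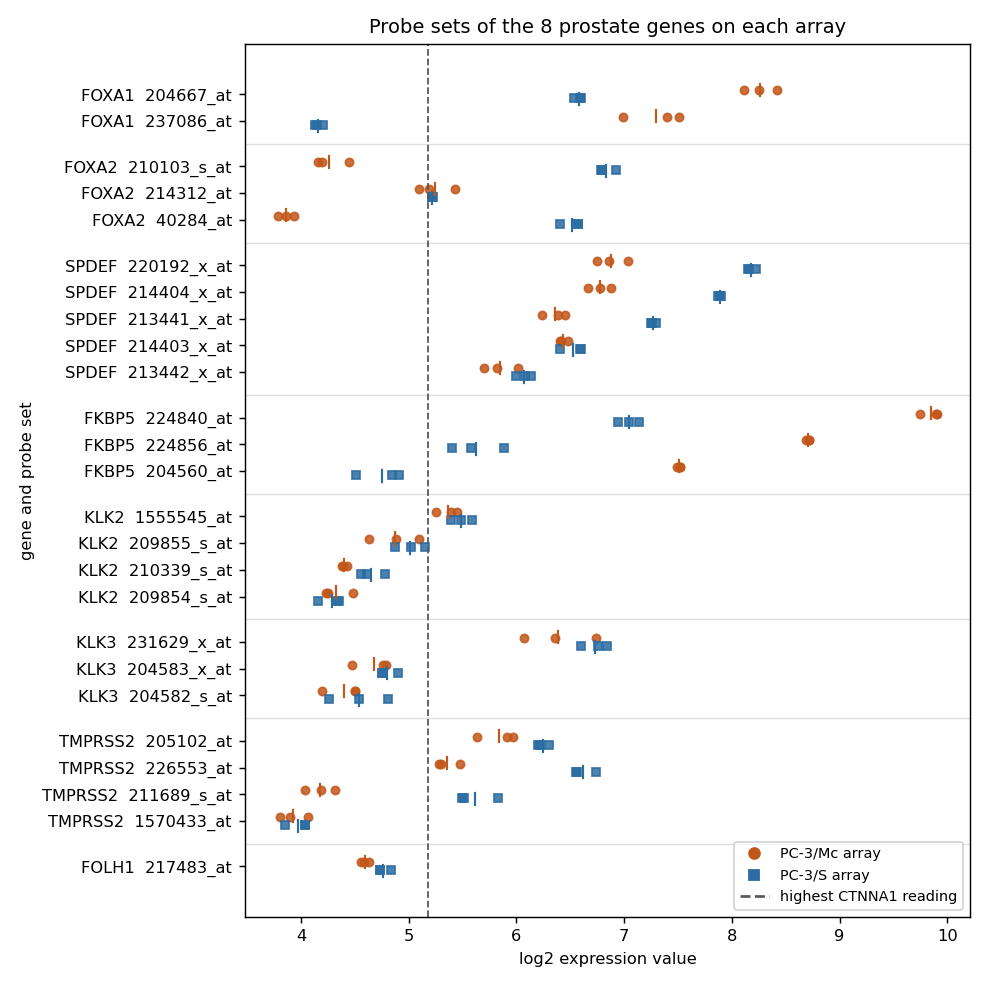
Log2 expression (horizontal axis) of each of the 25 probe sets (vertical axis, by gene) on the 3 PC-3/Mc arrays (orange circles) and the 3 PC-3/S arrays (blue squares); short vertical bars are the means of each line and the dashed line is the highest CTNNA1 reading, 5.18. FOXA1 and FKBP5 lie to the right in PC-3/Mc and FOXA2, SPDEF and TMPRSS2 in PC-3/S, while KLK2 and FOLH1 stay close to the dashed line in both.

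FOXA1 was higher in PC-3/Mc on both of its probe sets. On the brighter, 204667_at, the PC-3/Mc arrays read 8.12, 8.42 and 8.25 and the PC-3/S arrays 6.59, 6.54 and 6.60. The lines did not overlap, and PC-3/S lay above 5.18 on all of its arrays. The difference was 1.69 ± 0.10, or 3.22-fold (adjusted p = 4.8e-08). On 237086_at the readings were 7.39, 7.51 and 6.99 in PC-3/Mc against 4.15, 4.21 and 4.13 in PC-3/S. PC-3/S was therefore at background level on this probe set, which gave a measured difference of 3.14 ± 0.12 (adjusted p = 1.9e-09) and a fold of at least 4.35. The probe sets share the direction and differ in whether PC-3/S has a signal. Among 19775 genes, each represented by its brightest probe set, FOXA1 ranked 354th in this direction.

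FOXA2 went the other way and was near background in PC-3/Mc. On 210103_s_at the PC-3/Mc arrays read 4.16, 4.44 and 4.19 and the PC-3/S arrays 6.78, 6.80 and 6.92. On 40284_at they read 3.78, 3.93 and 3.86 against 6.57, 6.40 and 6.57. Every PC-3/Mc array was under 5.18 and every PC-3/S array over it on both of these probe sets. The differences were -2.57 ± 0.10 (adjusted p = 1.6e-09) and -2.66 ± 0.09 (adjusted p = 5.3e-10), with folds of at least 3.15 and 2.53. The third probe set, 214312_at, did not share this: it read 5.10, 5.19 and 5.43 in PC-3/Mc against 5.21, 5.23 and 5.22 in PC-3/S. These readings overlap around the background level, and the difference of 0.02 ± 0.10 was not called (adjusted p = 0.90, 95% interval -0.20 to 0.24). FOXA2 ranked 180th from the lower end among all genes. FOXA3, the remaining FOXA gene, was at 4.30 ± 0.17 (SD) in PC-3/Mc against 4.12 ± 0.13, under 5.18 in both, and was not called.

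SPDEF was lower in PC-3/Mc on 3 of its 5 probe sets and not called on the other two. On the brightest, 220192_x_at, readings were 6.86, 6.75 and 7.04 in PC-3/Mc against 8.16, 8.15 and 8.22 in PC-3/S, a difference of -1.30 ± 0.10 or 2.46-fold (adjusted p = 4.3e-07). The lines were apart by more than the whole range within either. On 214404_x_at, PC-3/Mc read 6.78, 6.67 and 6.87 against 7.88, 7.87 and 7.90, and on 213441_x_at 6.39, 6.24 and 6.45 against 7.25, 7.25 and 7.29. These differed by -1.11 ± 0.09 and -0.91 ± 0.09, also without overlap. On 214403_x_at the lines overlapped, at 6.40, 6.42 and 6.48 against 6.40, 6.60 and 6.59 (-0.10 ± 0.09, adjusted p = 0.47). The dimmest, 213442_x_at, read 5.82, 5.70 and 6.02 against 6.14, 6.08 and 5.99 (-0.23 ± 0.10, adjusted p = 0.11). That last probe set was called without PC-3/Mc replicate 3 (-0.31, adjusted p = 0.025). All 5 SPDEF probe sets carry the _x_at suffix, which Affymetrix gives to probe sets that may bind other transcripts, while _s_at marks those shared by transcripts of 1 gene or family; both are called shared-suffix probe sets below. No SPDEF probe set without the suffix was present to compare.

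FKBP5 was higher in PC-3/Mc on all 3 of its probe sets, by 7-fold or more on the pair that read above background in both lines. It encodes a cochaperone that binds HSP90 and lowers the hormone affinity of some steroid receptors, and its own transcription is induced by androgens, glucocorticoids and progestins. On 224840_at the PC-3/Mc arrays read 9.91, 9.89 and 9.74 and the PC-3/S arrays 7.04, 6.94 and 7.14. The gap between the lines was many times the range within either, and the difference was 2.81 ± 0.09, or 7.0-fold (adjusted p = 3.8e-10). On 224856_at the readings were 8.69, 8.71 and 8.71 against 5.88, 5.58 and 5.41, a difference of 3.08 ± 0.11 or 8.48-fold (adjusted p = 1.1e-09). On 204560_at they were 7.52, 7.52 and 7.49 against 4.91, 4.84 and 4.51. PC-3/S was under 5.18 there, which makes the measured difference of 2.76 ± 0.11 a fold of at least 5.04. All 3 probe sets gave differences between 2.76 and 3.08, and FKBP5 ranked 110th of 19775 genes by its brightest.

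TMPRSS2, a protease of the luminal cell surface, was lower in PC-3/Mc on 3 of 4 probe sets. On 226553_at PC-3/Mc read 5.30, 5.48 and 5.28 and PC-3/S 6.74, 6.56 and 6.56, a difference of -1.27 ± 0.09 or 2.41-fold (adjusted p = 4.9e-07). On 211689_s_at the readings were 4.04, 4.19 and 4.32 against 5.51, 5.49 and 5.83. This is -1.43 ± 0.11 as measured (adjusted p = 7.6e-07), but PC-3/Mc lay under 5.18 and the fold is at least 1.35. On 205102_at, brightest by its mean over all arrays, the difference was smaller: 5.97, 5.63 and 5.91 against 6.20, 6.30 and 6.22, or -0.41 ± 0.10 (adjusted p = 0.0075). The lines did not overlap on these 3 probe sets. The fourth, 1570433_at, read 3.81 to 4.07 over all 6 arrays and was not called (-0.05 ± 0.10, adjusted p = 0.75).

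KLK2 and KLK3, the secreted kallikreins whose promoters are printed above, had 1 called probe set of 7, and it read at background level in both lines. KLK3 on 231629_x_at read 6.07, 6.36 and 6.74 in PC-3/Mc against 6.76, 6.84 and 6.60 in PC-3/S. The lines overlapped, since the highest PC-3/Mc array lay above the lowest PC-3/S array, and the difference of -0.34 ± 0.15 was not called (adjusted p = 0.091, 95% interval -0.66 to -0.02). Without PC-3/Mc replicate 3 this KLK3 probe set was called (-0.52, adjusted p = 0.0043). The other two KLK3 probe sets, 204583_x_at and 204582_s_at, read between 4.19 and 4.90 on all 6 arrays, with differences of -0.13 ± 0.10 (adjusted p = 0.40) and -0.14 ± 0.14 (adjusted p = 0.50). So 2 of 3 KLK3 probe sets were at background level in both lines, and the brighter one carries the suffix of probe sets that may bind other transcripts.

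KLK2 read at most 5.59 on any array. Its brightest probe set, 1555545_at, gave 5.25, 5.39 and 5.45 in PC-3/Mc against 5.59, 5.48 and 5.39 in PC-3/S, which overlap (-0.12 ± 0.09, adjusted p = 0.36, 95% interval -0.33 to 0.08). The 3 others stayed at or under 5.18 in both lines. Among these, 210339_s_at read 4.43, 4.38 and 4.39 against 4.61, 4.78 and 4.56 and was called lower (-0.25 ± 0.09, adjusted p = 0.046). This call was lost in 9 of 10 alternatives, with adjusted p up to 0.199, and no fold is given because both lines lie at background level. For 209855_s_at and 209854_s_at the differences were -0.15 ± 0.12 (adjusted p = 0.41) and 0.04 ± 0.10 (adjusted p = 0.82).

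FOLH1 has 1 probe set of its own, 217483_at. It read 4.56, 4.58 and 4.63 in PC-3/Mc against 4.73, 4.84 and 4.73 in PC-3/S. The PC-3/S arrays were all higher, but every reading lay under 5.18 and the difference of -0.17 ± 0.08 was not called (adjusted p = 0.13, 95% interval -0.36 to 0.01). Another 3 probe sets are annotated to both FOLH1 and its near copy FOLH1B, so they cannot be assigned to either, and read between 3.53 and 4.72 with no call. The probe set of FOLH1B alone read 4.22, 4.14 and 4.46 against 3.78, 3.95 and 4.13, all under 5.18 (0.32 ± 0.11, adjusted p = 0.046), and this call was lost without PC-3/Mc replicate 1 or 3 and without PC-3/S replicate 1 or 2, on the gene scale (adjusted p = 0.063 to 0.161).

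**Figure D2:**
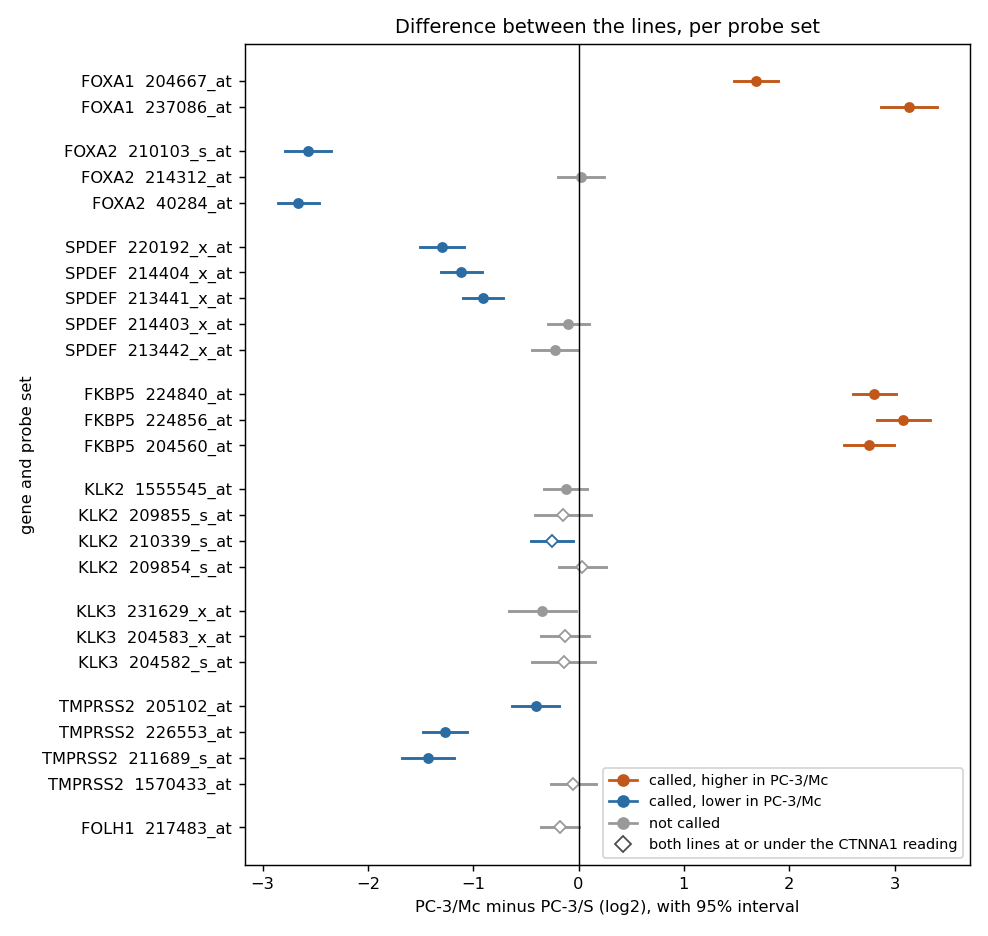
Difference in log2 expression between the lines (horizontal axis, PC-3/Mc minus PC-3/S) for each of the 25 probe sets (vertical axis), with 95% intervals from limma; orange is called higher in PC-3/Mc, blue called lower, grey not called, and open diamonds mark the 7 probe sets at or under 5.18 in both lines. FOXA1 and FKBP5 lie between 1.69 and 3.14, and FOXA2 (2 of 3 probe sets), SPDEF (3 of 5) and TMPRSS2 (3 of 4) between -0.41 and -2.66.

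The 8 genes thus fell into groups that did not move as a unit. FOXA1 and FKBP5 were higher in PC-3/Mc on all 5 of their probe sets, while FOXA2, SPDEF and TMPRSS2 were lower on 8 of 12. KLK2, KLK3 and FOLH1 had 7 of 8 probe sets not called and 6 of 8 at background level in both lines. The median difference of the 25 probe sets was -0.15, against -0.01 over the whole array.

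Further genes were placed around the 8 by lists, with each gene represented by its brightest probe set and adjusted p-values from limma over all 19775 genes. Of those genes 45.9% were called, 23.2% higher and 22.7% lower in PC-3/Mc, 11.5% were called at 2-fold or more, and the median difference was -0.03. The prostate label was first set against its defining transcripts. HOXB13, the homeobox factor of prostate epithelium and a partner of the androgen receptor, was at 10.32 ± 0.04 (SD) in PC-3/Mc against 9.56 ± 0.01 in PC-3/S (0.76 ± 0.07, adjusted p = 7.4e-06), and its other probe set differed by 1.26. The luminal keratins KRT8 (9.81 and 8.78) and KRT18 (12.48 and 11.32) were bright in both lines and about 2-fold higher in PC-3/Mc, at 2.04-fold and 2.23-fold. Both rested on _x_at probe sets. KRT19 (11.28 and 11.76), another keratin of the luminal list, named after its values were seen, was lower in PC-3/Mc (-0.48 ± 0.08, adjusted p = 0.00036).

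Of 28 luminal genes measured, 12 were higher, 5 lower and 11 not called, with a median difference of 0.15, and 9 lay at or under 5.18 in both lines. Over all genes, 34.8% lay at or under 5.18 in both lines. The mean log2 level over the list was 7.72 to 7.78 on the PC-3/Mc arrays and 6.96 to 7.01 on the PC-3/S arrays. The largest differences were those of CD24 (at least 69.6-fold), EPCAM (5.43 ± 0.13) and the tetraspanin TSPAN8 (4.39 ± 0.08), all surface proteins of many epithelia. CDH1 (at least 5.6-fold higher, on an _s_at probe set), named after its values were seen, came next. Its difference under the alternatives is not given here. The list mean rests heavily on CD24, EPCAM, TSPAN8 and CDH1, and it is not a level shared by the whole list. GDF15 (-1.66 ± 0.08), a stress-induced TGF-beta relative, and the secreted trefoil peptide TFF3 (at least 2.23-fold) were lower; with shared-suffix probe sets left out, GDF15 read 0.07 and was not called, and the list gave 10 calls of 19. The secretory products ACP3 (4.95 and 4.76) and MSMB (3.71 and 3.60), chosen after their values were seen, were under 5.18 in both lines like the 3 genes KLK2, KLK3 and FOLH1 on most of their probe sets. Secreted products of the list differed in this. AZGP1 (4.04 and 3.47) and NPY (4.11 and 4.62) also lay under 5.18, while AGR2 (9.31 and 8.83), KLK4 (6.52 and 6.88) and GDF15 (8.98 and 10.64) lay above it in both lines.

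The androgen response list, without the 8 genes, was called in both directions: of 45 measured, 13 rose in PC-3/Mc relative to PC-3/S, 16 fell and 16 did not pass, with a median difference of -0.01. The guanylate cyclase subunit GUCY1A1 (at least 2.36-fold) and the cytokine receptor gene LIFR (1.28 ± 0.10) led the higher ones, followed by KRT18. The proteoglycan gene SPOCK1 was at 5.44 and 8.56 (-3.12 ± 0.09), the TGF-beta feedback gene PMEPA1 at least 7.43-fold lower, and the prostaglandin dehydrogenase gene HPGD at -2.46 ± 0.11. Many of these genes answer to other signals as well, and no hormone was given or withheld in these samples as far as the labels say.

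**Figure D3:**
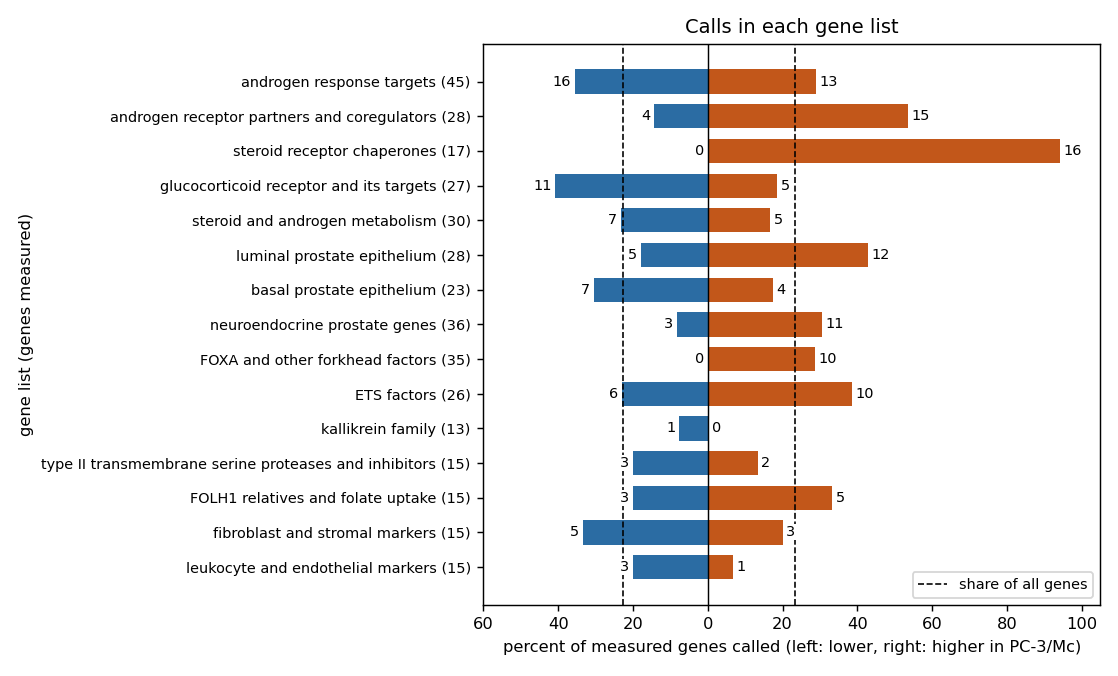
Percent of the measured genes of each list (vertical axis, number measured in brackets) called higher (right, orange) or lower (left, blue) in PC-3/Mc, with counts at the bar ends; dashed lines are the shares over all 19775 genes, 23.2% higher and 22.7% lower. Chaperones of steroid receptors have 16 of 17 genes on the right and none on the left, and the kallikrein family has 1 call of 13.

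Partners and coregulators of the androgen receptor were called higher more often than lower: 15 of 28 were higher, 4 lower and 9 not called, and the median was 0.28. NR2F1 (2.21 ± 0.12), an orphan nuclear receptor, NFIA (2.08 ± 0.10), a factor that pairs with FOXA1 at prostate enhancers, and the histone methyltransferase gene NSD2 (1.54 ± 0.08) had the largest differences; NSD2 differed by 0.44 with shared-suffix probe sets left out. The 4 lower genes, chosen after their values were seen, were NCOA2 (-0.99), NCOA4 (-0.83), CCND1 (-0.74) and NCOA1 (-0.47), of which NCOA1 and NCOA2 encode steroid receptor coactivators. With shared-suffix probe sets left out, 8 of 22 were higher and 2 lower, and the median was 0.15.

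The list of steroid receptor chaperones and cochaperones, which are not all parts of a single complex, was higher in PC-3/Mc for 16 of 17 genes. The median was 0.52, and HSPA4 (-0.05) was not called. BAG1 (1.32 ± 0.08), a nucleotide exchange factor, PTGES3 (1.13 ± 0.08), the p23 cochaperone, and FKBP4 (1.08 ± 0.08) had differences of at least 2-fold, that of FKBP4 on its _s_at probe sets only. FKBP4 is the relative of FKBP5 that favours receptor transport to the nucleus; its brightest probe set read 9.41, 9.43 and 9.56 in PC-3/Mc against 8.38, 8.37 and 8.40, and its probe set without a shared suffix, near background, differed by 0.45. HSP90AA1, the inducible HSP90, was at 13.52 ± 0.14 and 13.07 ± 0.11 (0.45 ± 0.10, adjusted p = 0.0024), and its difference was 0.76 with shared-suffix probe sets left out. With shared-suffix probe sets left out, 10 of 12 were higher and the median was 0.49.

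The glucocorticoid receptor gene NR3C1, whose product also induces FKBP5, was lower in PC-3/Mc on all 5 of its probe sets. On 201865_x_at it read 9.85, 9.90 and 9.87 in PC-3/Mc against 11.07, 11.08 and 11.05 in PC-3/S, a difference of -1.19 ± 0.07 or 2.29-fold (adjusted p = 2.2e-07 in the fit over genes). On the 3 other probe sets above 5.18 the difference ran from -0.88 to -1.20. NR3C1 and FKBP5 thus differed in opposite directions. Of 27 measured genes on the glucocorticoid receptor list 5 were higher, 11 lower and 11 not called, with a median of -0.09. Besides the receptor and its targets, the list holds the genes of other steroid receptors (NR3C2, PGR, ESR1 and ESR2). It also holds the dehydrogenase genes HSD11B1 and HSD11B2. NR3C2 (-2.04) is among the lower genes and HSD11B2 (0.78, under 5.18 in both lines) among the higher. The metallothionein genes MT1X (-2.99 ± 0.08) and MT2A (-2.82 ± 0.08) and PHACTR3 (at least 2.50-fold) were lowest. TSC22D3, a common glucocorticoid target, chosen after its values were seen, was at -0.82 (adjusted p = 1.4e-05), and SGK1 (0.08) and KLF9, under 5.18 in both lines, were not called. With shared-suffix probe sets left out, 4 of 22 were higher and 6 lower.

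**Figure D4:**
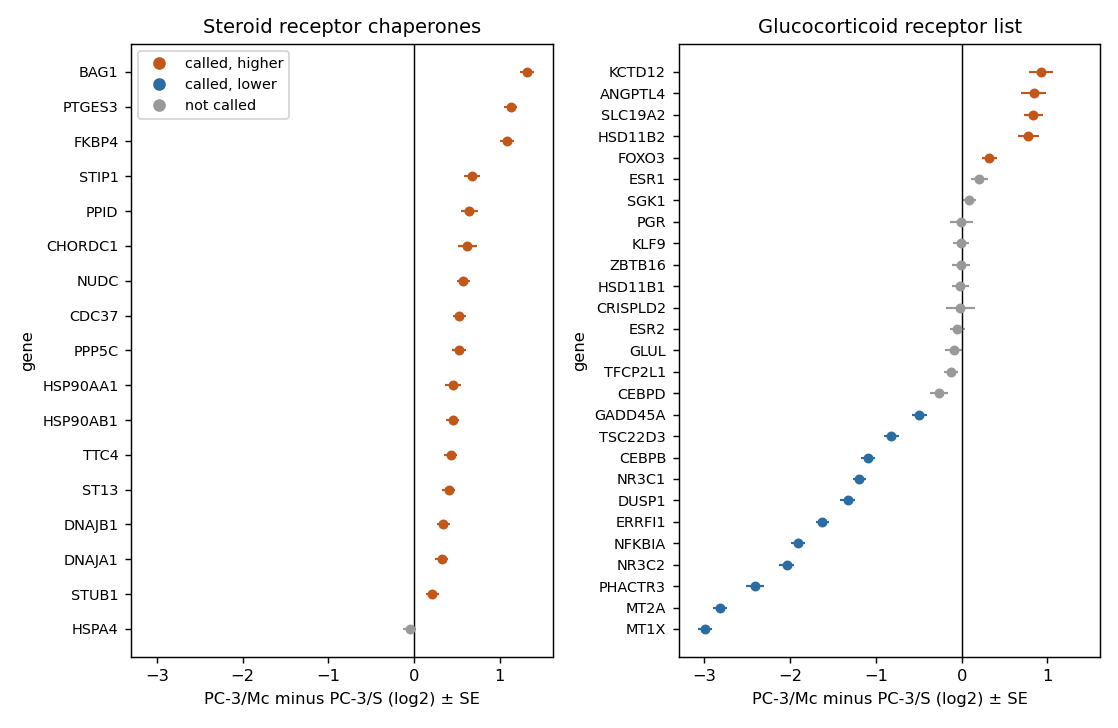
Difference in log2 expression (horizontal axes, PC-3/Mc minus PC-3/S, with standard error) for 17 chaperone genes of steroid receptors (left) and 27 genes of the glucocorticoid receptor list (right), with genes on the vertical axes; orange is called higher, blue lower and grey not called. On the left 16 genes lie above 0, and on the right the receptor gene NR3C1 lies at -1.19 among 11 lower genes.

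Among 30 genes of steroid and androgen metabolism 5 were higher, 7 lower and 18 not called, with a median of -0.08. The steroid transporter gene SLCO1B3 (1.06 ± 0.10) and the mitochondrial dehydrogenase gene HSD17B10 (1.04 ± 0.08) were higher, and AKR1C3, which makes testosterone from its precursor, was lower (-1.24 ± 0.10).

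The families of the 8 genes differed in how many members had a signal to compare. Of 35 other forkhead genes 10 were higher, none was lower and 17 stayed at or under 5.18 in both lines; FOXP1 (1.21 ± 0.08) was the only one past 2-fold, so that no forkhead gene on this list shared the direction of FOXA2 with a call. The ETS family of SPDEF had 10 higher, 6 lower and 10 not called of 26. EHF, an epithelial ETS factor, and ELF3, another, were higher in PC-3/Mc by at least 19.2-fold and by 1.91-fold, opposite to SPDEF, while ETS1 (-1.76 ± 0.10), ELK3 (-1.59 ± 0.14) and ETS2 (-1.39 ± 0.08) were lower as SPDEF was.

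In the kallikrein family 1 gene of 13 was called (KLK7, -0.60, chosen after its value was seen), or 7.69% against 45.9% of all genes, and 7 lay at or under 5.18 in both lines. KLK4 was at 6.52 ± 0.34 (SD) and 6.88 ± 0.27 and not called (adjusted p = 0.12); it was called without PC-3/Mc replicate 3 (-0.53, adjusted p = 0.023). The family count was 3 without PC-3/Mc replicate 3 and also 3 without PC-3/S replicate 3, and it was 0 when genes under the 40th percentile of level were left out. Among relatives of TMPRSS2 and their inhibitors 2 of 15 were higher, 3 lower and 10 not called, none past 2-fold; the 5 calls became 3 on leaving out replicate 1 of either line or replicate 2 of PC-3/S. ST14, or matriptase (5.62 and 5.59, adjusted p = 0.78), and HPN, or hepsin (5.07 and 5.26, adjusted p = 0.13), were not called. In the list of FOLH1 relatives and folate uptake 5 were higher, 3 lower and 7 not called of 15, led by TFR2 (at least 1.82-fold higher), FPGS (1.00 ± 0.08) and CPQ (at least 6.09-fold lower).

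Markers of other cell types were compared as well. Of 23 basal epithelial genes 4 were higher and 7 lower, with ITGB4 (1.89 ± 0.11), DSC3 (1.61 ± 0.10) and ITGA6 (1.18 ± 0.08) higher and JAG1 (-3.14 ± 0.10) and LAMB3 (-2.20 ± 0.08) lower; with shared-suffix probe sets left out, ITGB4 lost its call (0.10, adjusted p = 0.58) and ITGA6 read 0.65. Arrays of PC-3/Mc had a mean level of 7.09 to 7.11 over this list, those of PC-3/S 7.19 to 7.24. Of 36 genes measured on the neuroendocrine list, the setting in which FOXA2 is used as a marker, 11 were higher, 3 lower and 22 not called. On this list 19 genes were at or under 5.18 in both lines. Some of its genes, AFP, TTR and APOH among them, are not specific to that setting. UCHL1 (at least 207-fold), BEX1 (at least 23.0-fold) and AFP (at least 1.94-fold) were higher and SCG5 (-1.41 ± 0.08) and ONECUT2 (at least 2.49-fold) lower in PC-3/Mc. The UCHL1 difference was 7.87 on its brightest probe set, an _s_at one, and 1.31 with shared-suffix probe sets left out. The defining markers CHGA (4.77 and 5.0, adjusted p = 0.11) and SYP (4.82 and 4.95, adjusted p = 0.28) were under 5.18 in both lines, and CHGA was called lower without PC-3/Mc replicate 1 (-0.33, adjusted p = 0.030). The higher line for FOXA2 was thus PC-3/S, while the list mean was 5.74 to 5.81 in PC-3/Mc against 5.32 to 5.38 and the list's median difference was 0.06. That mean rests heavily on UCHL1 (7.87) and BEX1 (5.11 ± 0.09).

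Fibroblast and stromal markers numbered 3 higher and 5 lower of 15, with mean levels of 5.44 to 5.53 in PC-3/Mc against 5.28 to 5.37 but a median difference of -0.13, opposite in sign. COL1A2 (at least 9.90-fold) and LUM (at least 1.82-fold) were higher and COL3A1 (at least 2.05-fold) lower. Once shared-suffix probe sets were dropped, COL1A2 differed by 1.36 in place of 4.12, LUM (0.02) and COL3A1 (0.15) had no call, and the list had 3 calls of 12. Leukocyte and endothelial markers had 1 higher and 3 lower of 15, led by KDR (at least 2.07-fold lower), with means of 4.71 to 4.92 and 4.90 to 5.03. The leukocyte marker PTPRC was at 3.90 and 3.72. The 4 calls became 2 on leaving out replicate 1 of either line. The part of these markers in the differences of the 8 genes was not tested.

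For each of the 8 genes called on its brightest probe set, the genes nearest in pattern were found by the root mean square distance between centred log2 values over the 6 arrays, a description with no test. Nearest to FOXA1 were PARP8, RHOBTB3 and PODXL, at distances from 0.06 to 0.08, and 287 genes lay within 0.2. Nearest to FKBP5 were NELL2, CDH3 and ZIC2, at 0.04 to 0.08, with 54 genes within 0.2. For FOXA2 they were KRT37, RBP7 and HPGD, at 0.04 to 0.08, with 82 genes within 0.2. HPGD is also among the androgen response genes above. For SPDEF they were LINC02762, HGSNAT and CLEC11A, all under 0.05, with 538 genes within 0.2. For TMPRSS2, whose brightest probe set differed least, PON1, TMEM191A and SLC39A13 came first, and 4979 genes lay within 0.2.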

How the data were processed

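Each of 6 RNA samples, 3 per line, was measured on a one-colour Affymetrix array, and its title gave the line. The values are log2 expression as deposited by the authors; their software and normalization (not given in the sources used here) stay unknown, and the base was settled from the range (2.59 to 14.45). Any such normalization sets a difference against the bulk of the array. Depth is not defined for arrays; their number limits the precision, and the standard error of a probe set's difference had a median of 0.098. No 2 arrays were identical.

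After removal of 62 control probe sets, 54613 entered a two-sided test by lmFit and eBayes (limma 3.58.1, R 4.3.3, no covariates) with Benjamini-Hochberg adjustment; a second fit used the brightest of each gene's probe sets (19775 genes). Symbols came from the platform annotation: 41091 probe sets had 1, 1801 several and 11721 none. Promoters are RefSeq windows of GRCh38.p14, without the bases after the start.

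The 8 genes and the 15 lists (411 entries, 368 measured) were chosen with earlier results of these data known. Named from each list were up to 3 called genes per direction that differed at least 2-fold and reached the median of all genes (5.98) in the higher line, plus 18 anchor genes, 15 of them measured; the others are not analysed here. CTNNA1 as the background reference was chosen in the same way. Alternatives were quantile normalization, median centring, a filter at the 40th percentile of level, a trended robust prior, the replicate number as a block, each array left out, and no _x_at or _s_at probe sets; counts per list under these were added after seeing the data.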

Additional observations from a re-analysis of the deposited data

How the results depend on the processing

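Of the 14 called probe sets of the 8 genes, 13 kept direction and call in every alternative run on single probe sets. The exception was KLK2 210339_s_at, with adjusted p from 0.042 to 0.199. The setting without shared-suffix probe sets was not run on single probe sets. It would leave out the called SPDEF probe sets 220192_x_at, 214404_x_at and 213441_x_at, FOXA2 210103_s_at and TMPRSS2 211689_s_at. The number called was 13 in most alternatives and 13 to 15 when each array was left out. Over the array, 19582 probe sets were called, and 16878 to 20275 with each array left out; for genes 9083, 7975 to 9492, and 6903 with shared-suffix (_x_at, _s_at) probe sets left out. With the replicate number as a block (replicate block) 17443 probe sets and 13 of the 25 were called. Deviations of same-numbered arrays correlated at -0.01, -0.21 and -0.31, and those of differently numbered arrays at -0.08 to 0.27. Same-numbered arrays thus did not deviate together. These values cannot tell whether samples were grown or run together. Centring arrays on their medians moved the median difference from -0.01 to 0.04 and the share of calls that were higher from 51.2% to 57.8%.

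Signs turned for features that were not called: leaving out arrays gave -0.074 to 0.093 for FOXA2 214312_at, -0.043 to 0.080 for KLK2 209854_s_at, -0.12 to 0.0081 for TMPRSS2 1570433_at and -0.028 to 0.089 for ST14; the cause was not tested. With shared-suffix probe sets left out, other and dimmer probe sets gave 0.068 for GDF15 and 0.15 for COL3A1. The genes CD24, EPCAM, KRT8, KRT18, JAG1, HPGD, MT1X, MT2A, CHGA, HPN and FOLH1B had no single-symbol probe set without a shared suffix, and so no value in that setting. The filter on level left 3 calls among TMPRSS2 relatives, 4 among stromal and 2 among leukocyte and endothelial markers. With the median CTNNA1 reading (3.98) as the floor, the fold of FOXA2 40284_at was at least 5.81. Its PC-3/Mc mean (3.86) lay under that floor. The dimmer line of the other probe sets with a lower bound lay above it, so their folds are as measured. These were 8.80-fold for FOXA1 237086_at, 5.93-fold for FOXA2 210103_s_at, 6.75-fold for FKBP5 204560_at and 2.69-fold for TMPRSS2 211689_s_at. Readings near 5 on these arrays cannot separate a low level from none.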
